A study of Homo sapiens with 12 samples.

Results

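The elements described here are the 73 short RNA sequences of a PUM2 binding library that lie farthest from the Pumilio consensus TGTANATA (DNA letters, N being any base). They were chosen by sequence alone, as the 8-base elements listed in all 12 libraries with at least 3 mismatches at the 7 fixed positions of the consensus read forwards and at least 2 read backwards. They make up 73 of the 1005 listed 8-base elements, and a further entry named EMPTY, whose content the sources used here do not give, was left out. The other 932 elements are the 4 consensus elements, 84 single and 756 double substitutions, and 88 elements within 1 mismatch of the consensus written backwards.

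RBPscan records RNA binding inside living cells by fusing an RNA-binding protein to a deaminase, whose edits accumulate in a recorder hairpin beside a bound element. PUM2 is a Pumilio-family protein that binds mRNA 3′ UTRs and represses translation and stability. Its repeat domain contacts the RNA base by base, with the first 4 bases TGTA the most constant part of its sites and the bases after them more variable. ADAR enzymes turn adenosine into inosine, which is read as G. Elements without a site for the protein serve as the background of such an assay, because editing on them does not need the element.

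The host cells were HEK293T, an established line from human embryonic kidney whose genotype the labels give as WT. The 4 groups of 3 biological replicates were human PUM2 fused to ADARcdMUT, a mutated ADAR catalytic domain, without induction, the same fusion at 25 ng and at 250 ng, and, with no PUM2, ADARcdMUT alone at 1000 ng. The series states that the fusion was switched on with the antibiotic doxycycline, the usual inducer of tetracycline-controlled transgenes, while the titles give the amounts without naming a substance. The sources used here do not say whether 1000 ng refers to the same substance, and ADARcdMUT alone differs from the fusion libraries in amount as well as in PUM2. The level of either protein was not measured in these files.

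The members differ among themselves in ways that the mismatch rule did not use. All 7 fixed positions mismatched in 39 members, 5 or 6 in 13, 4 in 7 and 3 in 14. The members' GC count was 0 to 2 in 44, 3 to 5 in 25 and 6 to 8 in 4, and 20 carried a run of at least 4 equal bases. The rule compares each element with the consensus in 1 register only, so it admits elements that hold part of the consensus shifted along the sequence. TGTA stood in 11 of the 73 members (15.1%) against 185 of all 1005 elements (18.4%), searched on the listed strand. It began at base 1 in 5 members, at base 2 in 2 and at base 4 in 4. A further 3 members held GTANATA, the consensus without its first base, which 19 of the 1005 elements hold (1.89%). The GTANATA group was formed after the values were seen. The label "unrelated" thus holds in this sense for 59 members, which carried neither string, and the 14 others are described by the string they hold.

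The 11 members that hold TGTA are shown because most of the rises called relative to the library, given below, fall among them. TGTA is in capitals and each sequence is written 5′ to 3′.
TGTA from base 2: aTGTAcat
TGTA from base 2: aTGTAtag
TGTA from base 4: aaaTGTAt
TGTA from base 4: ataTGTAt
TGTA from base 4: caaTGTAt
TGTA from base 4: ataTGTAc
TGTA from base 1: TGTAagat
TGTA from base 1: TGTAcccc
TGTA from base 1: TGTAgggg
TGTA from base 1: TGTAtccc
TGTA from base 1: TGTAtggg
Counted from its TGTA, ATGTACAT carries the first 7 letters of the consensus before the element ends, ATGTATAG the first 6, and each of the 9 others the first 5. In the 4 that start at base 4 the element ends there, whereas in the 5 that start at base 1 the next letter is a mismatch. The bases beside the element in the recorder mRNA were not used here, so whether a site runs on past the element was not tested.

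The 3 members that hold GTANATA, in capitals, are shown with 1 neighbour that differs from the first of them by a single base.
GTANATA member: GTATATAg
GTANATA member: GTACATAt
GTANATA member: GTAGATAt
neighbour without it: ctatatag

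The simple repeats are shown because they span the range of base composition, with the first repeated unit in capitals.
run of A: Aaaaaaaa
run of C: Cccccccc
run of G: Gggggggg
run of T: Tttttttt
repeat of AC: ACacacac
repeat of AG: AGagagag
repeat of TC: TCtctctc
repeat of TG: TGtgtgtg

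Editing of the 73 members as a whole followed that of the library. Editing levels are given as edits per 100 recorder adenosines, of which a read holds 7. The median member was at 1.75, 1.96 and 1.81% in the 3 libraries of the fusion without induction, at 4.30, 4.58 and 4.25% at 25 ng, at 7.82, 7.94 and 8.03% at 250 ng, and at 1.95, 1.97 and 1.84% with ADARcdMUT alone. The induced groups did not overlap with each other or with the non-induced and ADARcdMUT libraries, whereas the non-induced and ADARcdMUT libraries did overlap. The means were 1.84 ± 0.109% without induction, 4.38 ± 0.177% at 25 ng, 7.93 ± 0.103% at 250 ng and 1.92 ± 0.0664% with ADARcdMUT (SD, n = 3 each). Thus the median member was edited 4.31 times as much at 250 ng and 2.38 times as much at 25 ng as without induction, while ADARcdMUT alone was at 1.04 times the non-induced level.

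Every member was called higher in each of the 5 comparisons that set an induced fusion group against a less induced group or against ADARcdMUT. The calls come from limma on the log2 odds of editing with Benjamini-Hochberg adjustment over 1006 entries, at an adjusted p under 0.05, and 100% of the 1006 entries passed too, so the count says nothing particular about the members. For 250 ng against no induction the members' log2 odds rose by 1.84 to 2.67, with a median of 2.21 against 2.21 over all entries. For ADARcdMUT against no induction limma called 0 of 73 members, against 0.199% of all entries called higher, and at an unadjusted p under 0.05 it had 8 members higher and 2 lower, together 13.7% of members, against 17.6% of all entries.

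The level of the members was close to that of the rest of the library, where the median element reached 1.82% without induction, 4.34% at 25 ng, 7.87% at 250 ng and 1.95% with ADARcdMUT. Within each 250 ng library the member median lay 0.128, 0.145 and 0.164 percentage points above the median of the 624 double substitutions without TGTA, and 0.0480, 0.196 and 0.0660 points above that of the 88 backward elements. Set against the backward elements it lay 0.0324 ± 0.0486 points above at 25 ng, where 2 of 3 libraries were above. It lay below in 3 of 3 libraries without induction (-0.0478 ± 0.0176 points) and with ADARcdMUT (-0.0868 ± 0.0761 points). ADARcdMUT replicate 3 was only just below, at -0.000148 points. These member medians include the 14 members with TGTA or GTANATA. The 59 with neither had medians of 7.73, 7.93 and 7.995% in the 250 ng libraries. There the double substitutions without TGTA were at 7.69, 7.80 and 7.86%, and the backward elements at 7.77, 7.75 and 7.96%. The 59 thus lay below the backward elements in replicate 1. The consensus elements stood far above at 250 ng, with a median of 13.3%, yet at 1.79% without induction they did not. EMPTY was at 2.01% without induction, 4.29% at 25 ng, 7.63% at 250 ng and 2.12% with ADARcdMUT.

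The share of reads with any edit and the number of edits on such reads both moved. The median member had an edit on 7.05% of reads without induction, 14.0% at 25 ng, 22.6% at 250 ng and 7.15% with ADARcdMUT. An edited read carried 1.83 edits without induction, 2.197 at 25 ng, 2.47 at 250 ng and 1.89 with ADARcdMUT.

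Elements at the edge of the rule had levels close to those just beyond it. The 14 members with exactly 3 forward mismatches had a median level of 7.96% at 250 ng, against 7.83% for the 756 double substitutions. The 6 members with exactly 2 backward mismatches were at 7.995%, against 7.83% for the 84 elements with 1. Of these members ATATGTAT, GTACATAT and GTAGATAT hold TGTA or GTANATA and averaged 9.01, 8.96 and 7.98%. AAAGTTGT, AAGTATGT and GAATATGT hold neither and averaged 7.88, 7.75 and 7.85%. Without induction the members with 3 forward mismatches were at 1.89%, against 1.82% for the double substitutions, and those with 2 backward mismatches at 1.75%, against 1.89% for the elements with 1. These values are descriptions with no test.

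Over all 73 members the spread in percentage points was wider with the induced fusion, but relative to their level it was similar. These spreads include the noise between replicates, which was not taken out. The lowest and highest members were at 1.58 and 2.38% without induction, 3.88 and 6.18% at 25 ng, 7.34 and 11.1% at 250 ng, and 1.35 and 2.42% with ADARcdMUT. The SD over the 73 members was 7.53% of their median without induction, 7.87% at 25 ng, 7.97% at 250 ng and 8.93% with ADARcdMUT. Over the 59 members with neither TGTA nor GTANATA it was 7.36% without induction, 3.92% at 25 ng, 3.87% at 250 ng and 9.77% with ADARcdMUT. In points the SD over the 59 was 0.135 without induction, 0.171 at 25 ng, 0.304 at 250 ng and 0.186 with ADARcdMUT. Correlations were taken on the relative level, the log2 odds minus the library median. Relative levels at 250 ng and 25 ng correlated over the 73 members with a Pearson r of 0.859, and those with ADARcdMUT and without induction with 0.461. Over these 59 the same correlations were 0.498 and 0.495. Each point is a mean of 3 libraries of the same element pool, so the values share element sequence and read depth, and the correlations are given as descriptions.

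To see which members moved differently from the library, each library was centred on its median log2 odds and the limma fit repeated. For 250 ng against no induction 7 of 73 members rose, against 9.64% of all 1006 entries, and 3 fell, against 3.38%. For 25 ng against no induction 5 rose, against 7.06% of all entries, and 3 fell, against 2.19%. For 250 ng against ADARcdMUT 5 rose, against 10.3%, and 3 fell, against 4.37%. For 25 ng against ADARcdMUT 5 rose, against 7.55%, and 1 fell, against 2.49%. The member shares, 1.37 to 9.59%, lay near or below these background shares, except for the falls at 25 ng against no induction. There 4.11% of members fell, against 2.19% of all entries, a gap that rests on 3 members. The other counts of calls do not set the members apart. Single libraries moved these counts. Without non-induced replicate 1 or 250 ng replicates 2 or 3 only 1 member fell for 250 ng against no induction. For 25 ng against no induction 3 rose without 25 ng replicates 1 or 2, and 1 fell without any one of these, non-induced replicate 1 or a 250 ng replicate. For 250 ng against ADARcdMUT 9 rose without non-induced replicate 2, 8 without ADARcdMUT replicates 1 or 2, and 11 rose and 5 fell without ADARcdMUT replicate 3. Between 25 ng and ADARcdMUT 3 rose without 25 ng replicate 2 and 9 without ADARcdMUT replicate 3, while 0 fell without any one 25 ng replicate and 2 without non-induced replicates 1 or 2 or ADARcdMUT replicates 2 or 3. The comparisons also share libraries with each other, so a call repeated across them is not independent evidence.

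The calls for 250 ng against no induction split by whether the member holds TGTA or GTANATA. Of the 14 members with TGTA or GTANATA 7 rose and 0 fell for 250 ng against no induction, and of the 59 with neither 0 rose and 3 fell by limma on centred values. At 25 ng against no induction the counts were 5 and 0 among the 14, and 0 and 3 among the 59. Against ADARcdMUT, 5 of the 14 rose at 250 ng and 4 at 25 ng, while of the 59 others 0 rose and 3 fell at 250 ng, and 1 rose and 1 fell at 25 ng. Since the grouping by GTANATA followed from the values, no test of this split is given. At an unadjusted p under 0.05 for 250 ng against no induction 11 members were higher and 4 lower, together 20.5% of members, against 26.1% of all entries.

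The place of the TGTA went with the level at 250 ng, where the 59 members with neither string averaged 7.34 to 8.97%. The 2 members with TGTA from base 2 averaged 10.5 and 11.1%, the 4 with TGTA from base 4 between 8.32 and 9.58%, and the 5 with TGTA at base 1 between 7.41 and 8.95%. Thus both members with TGTA from base 2 lay above all others, while those with TGTA from base 4 or base 1 overlapped with the 59. Place was tied to the rule and to composition, and these were not tested apart. With TGTA at base 1 the rule requires a mismatch at every later fixed position. TGTACCCC, TGTAGGGG, TGTATCCC and TGTATGGG have a GC count of 4 or 5, whereas TGTAAGAT and the 6 members with later TGTA have 1 or 2. TGTAAGAT averaged 8.95%, within the range of those with TGTA from base 4. The 6 members with TGTA after base 1 had a median 1.499 ± 0.280 points above that of the 59 others within the 250 ng libraries, 0.694 ± 0.0815 points above at 25 ng, 0.00803 ± 0.00987 points above without induction and 0.0421 ± 0.0686 points above with ADARcdMUT (SD, n = 3). The 5 with TGTA at base 1 had a median 0.000617 ± 0.146 points above that of the 59 at 250 ng. The 3 GTANATA members had a median 1.07 ± 0.0786 points above the 59 at 250 ng and 0.176 points below without induction.

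ATGTATAG had the highest level of all members in the induced groups. Its 3 libraries read 1.70, 2.14 and 2.0% without induction, 5.97, 6.71 and 5.86% at 25 ng, 11.0, 11.1 and 11.1% at 250 ng, and 2.14, 2.03 and 1.89% with ADARcdMUT. It ranked 8th of the 1005 elements at 25 ng and 11th at 250 ng, but 164th without induction and 270th with ADARcdMUT. Relative to the library it rose by 0.45 log2 odds at 250 ng (SE 0.06, adjusted p = 9.03e-05) and by 0.44 at 25 ng (SE 0.06, adjusted p = 0.000146) against no induction, by limma. Against ADARcdMUT the relative rise was 0.49 at 250 ng and 0.48 at 25 ng (adjusted p = 4.62e-05 and 6.63e-05).

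ATGTACAT read 1.65, 1.97 and 1.82% without induction, 5.39, 6.52 and 5.57% at 25 ng, 10.4, 10.6 and 10.4% at 250 ng, and 1.92, 1.95 and 1.91% with ADARcdMUT. The 2 induced groups overlapped neither each other nor the non-induced and ADARcdMUT libraries. Its relative rise against no induction was 0.46 at 250 ng (SE 0.06, adjusted p = 0.000105) and 0.45 at 25 ng (SE 0.06, adjusted p = 0.000188). The calls of ATGTATAG and ATGTACAT held under every alternative tried, in all 4 comparisons of the fusion with no induction or ADARcdMUT.

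On both elements the added edits came as more edited reads and as more edits on each. ATGTATAG had edits on 26.3, 26.7 and 26.4% of reads at 250 ng, with 2.92, 2.92 and 2.95 edits per edited read, against the median member's 22.6% and 2.47.

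Among the elements with TGTA from base 4, AAATGTAT read 9.64, 9.28 and 9.81% at 250 ng, against 2.05, 1.67 and 1.92% with ADARcdMUT. Its relative rise against ADARcdMUT was 0.36 (SE 0.08, adjusted p = 0.00407), and against no induction 0.21 (adjusted p = 0.0946), which missed the threshold. ATATGTAT read 8.76, 8.74 and 9.54% at 250 ng, against 1.68, 1.65 and 1.69% without induction, a relative rise of 0.34 (SE 0.07, adjusted p = 0.00482), and its 250 ng level was highest in replicate 3. Against ADARcdMUT its relative change at 250 ng was 0.20, which missed the threshold (adjusted p = 0.0758). CAATGTAT read 9.10, 8.92 and 8.99% at 250 ng, against 1.81, 2.02 and 1.66% without induction, with a relative rise of 0.21 (SE 0.06, adjusted p = 0.041). At 25 ng its relative rise was 0.24 against no induction (adjusted p = 0.0253). ATATGTAC was not called in any comparison, at 8.41, 8.20 and 8.35% at 250 ng with a relative change of 0.09 (adjusted p = 0.471).

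The GTANATA elements were not alike. GTACATAT read 1.54, 1.57 and 1.63% without induction, the lowest mean of all members there, and 8.76, 8.98 and 9.14% at 250 ng, a relative rise of 0.41 (SE 0.09, adjusted p = 0.00466). Against ADARcdMUT the change at 250 ng was 0.27 and missed the threshold (adjusted p = 0.051). Its level at 250 ng was 5.67 times that without induction, close to the 5.77 times of ATGTACAT and 5.69 times of ATGTATAG. GTATATAG read 1.66, 1.92 and 1.81% without induction, 5.005, 5.26 and 4.63% at 25 ng and 8.72, 8.98 and 9.35% at 250 ng, with relative rises of 0.22 at 25 ng (adjusted p = 0.0102) and 0.24 at 250 ng (SE 0.05, adjusted p = 0.00482) against no induction. GTAGATAT read 8.38, 7.70 and 7.87% at 250 ng and changed by 0.08 (SE 0.08, adjusted p = 0.609).

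TGTACCCC was the only member with TGTA at base 1 to be called, and only for 250 ng against no induction. It read 8.19, 8.14 and 8.39% at 250 ng, against 1.58, 1.71 and 1.78% without induction, a relative rise of 0.18 (SE 0.05, adjusted p = 0.0369). TGTAAGAT had the highest 250 ng level of this class, at 9.12, 8.78 and 8.94%, but was also high without induction at 2.38, 2.02 and 2.201%, and its relative change was -0.08 (adjusted p = 0.679). TGTAGGGG was among the lowest members at 250 ng, at 7.47, 7.47 and 7.28%.

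Several of these calls were weak. Leaving out 1 library ended the CAATGTAT call for 250 ng against no induction without non-induced replicate 3, without 25 ng replicates 1 or 3 and without any one 250 ng replicate (adjusted p = 0.0506 to 0.159 by limma). Its call at 25 ng ended without non-induced replicate 3 or 25 ng replicates 1 or 2 (adjusted p = 0.0709 to 0.135), and its calls against ADARcdMUT ended without 250 ng replicate 1 at 250 ng (adjusted p = 0.0729) and without 25 ng replicate 2 at 25 ng (adjusted p = 0.0528). The TGTACCCC call ended without non-induced replicates 1 or 2, without 25 ng replicates 1 or 3 and without any one 250 ng replicate (adjusted p = 0.0531 to 0.151). The GTACATAT call at 25 ng ended without non-induced replicate 2 or 25 ng replicates 2 or 3 (adjusted p = 0.0686 to 0.0722), and that of GTATATAG at 25 ng without 25 ng replicate 1 (adjusted p = 0.0632). With the share of edited reads as the measure GTACATAT was no longer called for 250 ng against no induction (adjusted p = 0.117), nor was AAATGTAT against ADARcdMUT (adjusted p = 0.0828). CAATGTAT then lost its calls against no induction at 250 ng and 25 ng (adjusted p = 0.261 and 0.184). Its 250 ng call against ADARcdMUT was also lost (adjusted p = 0.058). So were GTACATAT at 25 ng and TGTACCCC at 250 ng against no induction (adjusted p = 0.396 and 0.0509). Centring on the mean ended the 250 ng calls of CAATGTAT and TGTACCCC against no induction (adjusted p = 0.075 and 0.0671). The quasi-binomial model ended that of TGTACCCC (adjusted p = 0.0615).

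Among the 73 members 33 pairs differ by a single base, with positions counted from 1 at the 5′ end. The members of a pair differed at 250 ng by 0.0469 to 1.08 points, with a median of 0.317, and the 29 pairs in which neither string is gained or lost by up to 0.975 points. The 5 pairs below were picked after their values were seen and carry no test. The change C1G turns CTATATAG into GTATATAG and so completes GTANATA, and the level was 1.05 ± 0.124 points higher at 250 ng (SD, n = 3, higher in 3 of 3 libraries) and 0.324 ± 0.267 points lower without induction (lower in 3 of 3). The change C6T turns ATATGCAT into ATATGTAT and completes TGTA, and the level was 1.08 ± 0.384 points higher at 250 ng and 0.340 ± 0.0677 points lower without induction, again in 3 of 3 libraries each. Within GTANATA, the change C4G from GTACATAT to GTAGATAT came with a level 0.975 ± 0.522 points lower at 250 ng. In the 2 pairs in which TGTA at base 1 is lost, the direction differed. The change A4C from TGTACCCC to TGTCCCCC came with a level 0.392 ± 0.174 points lower at 250 ng, whereas A4G from TGTAGGGG to TGTGGGGG came with one 0.762 ± 0.214 points higher.

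TGTGTGTG, a repeat of a kind bound by GU-binding proteins such as the CELF family, was the member most clearly called lower. It read 2.34, 2.54 and 2.28% without induction, 4.62, 4.82 and 4.55% at 25 ng, 8.06, 8.19 and 7.90% at 250 ng, and 2.62, 2.29 and 2.35% with ADARcdMUT. Its level was thus the highest of all members in the 2 groups without the induced fusion and ranked 23rd of the 73 at 250 ng. Relative to the library it fell by 0.36 log2 odds at 250 ng (SE 0.06, adjusted p = 0.000388) and by 0.29 at 25 ng (SE 0.06, adjusted p = 0.00344) against no induction, and by 0.29 at 250 ng (adjusted p = 0.00223) against ADARcdMUT. Between 25 ng and ADARcdMUT it fell by 0.21 (adjusted p = 0.0209), a call that ended without any one 25 ng replicate or without ADARcdMUT replicate 3 (adjusted p = 0.0506 to 0.0920). In absolute terms TGTGTGTG rose like every member, to 3.38 times its non-induced level at 250 ng.

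ATAGTCAT and CGGATGAT also fell relative to the library, and both were high without induction. ATAGTCAT read 7.91, 8.04 and 8.13% at 250 ng, against 2.15, 2.39 and 2.09% without induction, and fell by 0.25 (SE 0.07, adjusted p = 0.018). CGGATGAT read 8.04, 7.74 and 7.68% at 250 ng, against 2.002, 2.19 and 1.98% without induction, and fell by 0.19 (SE 0.05, adjusted p = 0.0208). Neither passed against ADARcdMUT (adjusted p = 0.351 and 0.0957 at 250 ng). The ATAGTCAT call at 250 ng ended without non-induced replicates 1 or 2 or any one 250 ng replicate (adjusted p = 0.0595 to 0.0673), and that of CGGATGAT without non-induced replicate 1 or 250 ng replicates 2 or 3 (adjusted p = 0.0672 to 0.133). At 25 ng both calls were close to the threshold (adjusted p = 0.04 and 0.0499). There the ATAGTCAT call ended without non-induced replicates 1 or 2, 25 ng replicates 1 or 2 or any one 250 ng replicate, and that of CGGATGAT without any one library of the fusion (adjusted p = 0.0523 to 0.183 over both).

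Besides AAATGTAT, 3 members were called only against ADARcdMUT. AAAGTTGT read 7.68, 8.08 and 7.89% at 250 ng, against 2.47, 2.23 and 2.29% with ADARcdMUT, and fell by 0.27 (SE 0.06, adjusted p = 0.0102). With the share of edited reads its change was -0.10 and the call was lost (adjusted p = 0.393). ATATTGAG read 7.19, 7.46 and 7.54% at 250 ng, against 2.32, 2.07 and 1.85% with ADARcdMUT, and fell by 0.19 (SE 0.06, adjusted p = 0.0377), which was lost without any one 250 ng replicate, without ADARcdMUT replicates 1 or 2 and without 25 ng replicate 1 (adjusted p = 0.0533 to 0.140). TTCACCTA read 4.34, 5.09 and 3.63% at 25 ng, against 1.40, 1.10 and 1.55% with ADARcdMUT, and rose by 0.54 (SE 0.16, adjusted p = 0.0449). It was counted on 1204 to 2571 reads a library, among the fewest of the members, and lost its call in 12 alternatives, among them leaving out non-induced replicate 3, 25 ng replicates 1 or 2, 250 ng replicate 3, or ADARcdMUT replicates 1 or 2 (adjusted p = 0.0595 to 0.202).

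No member was called relative to the library between 250 ng and 25 ng, where 0% of all entries were called in either direction, with 2 members higher at an unadjusted p under 0.05 by limma (2.74% of members, against 0.398% of all entries). The quasi-binomial model called 1 member higher there, CCCCCCCC, by 0.18 log2 odds (adjusted p = 0.0128). For ADARcdMUT against no induction limma called 0 members relative to the library, with 3 higher and 12 lower at an unadjusted p under 0.05, together 20.5% of members, against 13.3% of all entries. Without non-induced replicate 2 there was 1 higher and 1 lower, without non-induced replicate 1 there was 1 lower, and without ADARcdMUT replicate 3 there were 2 lower.

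GC content went with small differences in level whose size depended on the summary. Members with a GC count of 0 to 2 had a median 0.187 ± 0.0635 points above those with 3 to 5 at 250 ng (above in 3 of 3 libraries), 0.0293 ± 0.0645 at 25 ng, 0.0397 ± 0.0217 without induction and 0.116 ± 0.155 with ADARcdMUT. Without the members that hold TGTA or GTANATA the 250 ng difference was 0.0798 ± 0.151 points and above 0 in 2 of 3 libraries. With GC 0 to 1 set against GC 7 to 8, a class that holds only CCCCCCCC and GGGGGGGG, it turned to -0.481 points. With means in place of medians it was 0.465 points at 250 ng and 0.196 points at 25 ng. The share of edited reads differed by 0.550 points at 250 ng and 0.134 points at 25 ng. These are points of reads rather than of adenosines, so their size does not compare with that of the other differences. The correlation of GC count with relative level over the 59 members without these strings lay between -0.206 and 0.197 in the 250 ng libraries, which were counted on the same elements.

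Repeats differed by kind. The 4 homopolymers had a median of 8.55, 8.67 and 8.59% in the 250 ng libraries, and the 4 repeats of 2 bases 7.46, 7.58 and 7.85%. The difference was 0.979 ± 0.200 points at 250 ng and 0.184 ± 0.0947 points at 25 ng, above 0 in 3 of 3 libraries each, but 0.0783 ± 0.144 points without induction and -0.0184 ± 0.128 points with ADARcdMUT. The homopolymers stood 0.676 ± 0.0937 points above the median of all members at 250 ng and the repeats of 2 bases 0.303 points below it. These sets hold 4 elements each, and no test of the sets was made.

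All 4 homopolymers lay above the member median at 250 ng. CCCCCCCC read 8.94, 9.28 and 8.70% at 250 ng, against 2.02, 2.39 and 1.96% without induction. GGGGGGGG read 8.82, 9.01 and 8.36% at 250 ng, against 1.87, 1.93 and 1.66% without induction. AAAAAAAA read 8.25, 8.33 and 8.69%, against 1.38, 1.86 and 1.85% without induction, and TTTTTTTT 8.29, 8.18 and 8.49%, against 1.89, 2.13 and 1.67%. None of the 4 was called relative to the library at 250 ng against no induction, where the changes were 0.22 for AAAAAAAA (adjusted p = 0.119), 0.17 for GGGGGGGG (adjusted p = 0.185), 0.03 for TTTTTTTT and -0.02 for CCCCCCCC. At 25 ng the homopolymers averaged 4.44 to 4.64%, against a member median of 4.38%.

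The repeats of 2 bases other than TGTGTGTG were at the low end at 250 ng, ranking 61st, 67th and 72nd of 73. At 25 ng TCTCTCTC ranked 33rd. ACACACAC read 7.23, 7.55 and 7.34% at 250 ng, against 1.58, 1.91 and 1.87% without induction, and was the second lowest member at 250 ng and at 25 ng. TCTCTCTC read 7.39, 7.59 and 7.79% and AGAGAGAG 7.53, 7.56 and 8.07% at 250 ng. Their relative changes for 250 ng against no induction were -0.07, -0.01 and 0.01 in the order ACACACAC, TCTCTCTC and AGAGAGAG, and none was called.

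More generally, members with a run of at least 4 equal bases had a median 0.191 ± 0.0666 points above the others at 250 ng, or 0.258 ± 0.0732 points once members with TGTA or GTANATA were left out, in 3 of 3 libraries each. The same difference was 0.0309 ± 0.0607 points at 25 ng, -0.0115 ± 0.0119 points without induction and -0.0530 ± 0.0908 points with ADARcdMUT. It shrank to 0.0299 points at 250 ng when runs of 3 counted too, and to 0.0141 points with means in place of medians. Over the 59 members without the strings, the longest run correlated with the relative level at an r of 0.389 to 0.534 in the 250 ng libraries, 0.123 to 0.223 at 25 ng, -0.0988 to 0.113 without induction and -0.0892 to 0.00318 with ADARcdMUT. The 8 members made of a block of 4 equal bases and a second block of 4 had a median of 7.97% at 250 ng, near the member median of 7.93%. They were not alike. TTTTAAAA, AAAATTTT and TTTTGGGG averaged 8.54, 8.46 and 8.25%, and the others 7.73 to 7.95%.

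Binding strings of other proteins gave no common pattern among the members. The AU-rich string ATTTA was in 3 members (15 of 1005 elements, 1.49%), with a median of 7.72% at 250 ng. GCATG, the string of RBFOX proteins, was in 2 (5 elements, 0.498%), with 7.66%. CCCC, of the kind bound by poly(C)-binding proteins, was in 8 members, all the library's elements that hold it, with 7.91%. GGGG was in 6 (7 elements, 0.697%) with 8.04%, TTTTT in 2 (4 elements, 0.398%) with 8.20%, AAAAA in 2 (14 elements, 1.39%) with 8.17% and CACACA in 2 (3 elements, 0.299%) with 7.58%. TTTTTTTT and TGTTTTTT are the members with TTTTT, and TGTAGGGG holds both GGGG and TAGGG. CCCC and GGGG overlap the runs above. TGTGTG and TAGGG were in 1 member each, TCAT was in ATAGTCAT, and ACTAA and GAAGAA were in none.

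Read abundance was called different in 1 comparison. Between 250 ng and ADARcdMUT, edgeR's quasi-likelihood test on read counts called 15 of 73 members higher (31.7% of all entries were) and 31 lower (34.8% of all). Of the 25 members with a GC count of 3 to 5, 20 were lower and 0 higher, and of the 4 with 6 to 8, 2 were lower. The 44 with 0 to 2 split into 15 higher and 9 lower. The log2 change correlated with GC count at an r of -0.643 over the 73 members and -0.544 over the 1005 elements, and GC took 30.4 to 31.2% of listed bases in the 250 ng libraries, against 31.5 to 32.8% with ADARcdMUT. CGGATGAT had the lowest change at -0.82 and GTACATAT the highest at 0.51 (adjusted p = 0.0046 each by edgeR). In the other 5 comparisons edgeR called 0 members. At an unadjusted p under 0.05 there were 27 members (37.0%, against 42.7% of all entries) for 250 ng against no induction, 20 (27.4%, against 32.0%) for 250 ng against 25 ng, 24 (32.9%, against 26.6%) for 25 ng against ADARcdMUT, 25 (34.2%, against 25.3%) for ADARcdMUT against no induction and 0 (against 0.0994%) for 25 ng against no induction. Uncalled changes of the 25 members with a GC count of 3 to 5 were below 0 in 20 for 250 ng against no induction (median -0.20), in 24 for 250 ng against 25 ng and in 23 for 25 ng against ADARcdMUT, and above 0 in all 25 for ADARcdMUT against no induction (median 0.23). DESeq2 called 5 higher and 13 lower for 250 ng against no induction, 8 higher and 2 lower for ADARcdMUT against no induction, and 2 higher and 1 lower for 25 ng against ADARcdMUT. The edgeR counts of 0 also depended on single libraries, of which 25 ng replicates 1 and 2 and ADARcdMUT replicate 3 mattered. Without 25 ng replicate 2 there were 7 higher and 18 lower for 250 ng against no induction, 10 higher and 23 lower for 25 ng against ADARcdMUT, and 4 higher and 5 lower for ADARcdMUT against no induction. Without 25 ng replicate 1 there were 5 higher and 16 lower for 250 ng against 25 ng and 3 higher and 10 lower for 250 ng against no induction. Without ADARcdMUT replicate 3 there were 16 higher and 1 lower for ADARcdMUT against no induction and 2 higher and 11 lower for 25 ng against ADARcdMUT. Whether this shift in read share has a part in the editing levels was not tested, and the GC difference in editing was 0.187 points at 250 ng.

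Library depth was 11235321 to 25127959 reads, and 5.19 to 6.36% of these fell on the members. A member had a median of 8503 to 19471 reads a library, with 1091 reads as the lowest and 40958 as the highest, and 14 members had under 5000 reads in some library. All 5 members with a median under 2500 reads, TTCACCTA among them, have exactly 3 forward mismatches. The variance between replicates was 6.60 to 16.0 times that of independently edited adenosines, so errors are given as the spread between replicates. Sequences of the same library are not replicates of each other, and many members share most of their bases.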

How the data were processed

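Recorder amplicons of 12 HEK293T libraries, 3 in each of 4 groups taken from the sample titles, were sequenced, per the labels. The labels' extraction text names embryos of another organism, but the cell line, the source and the design text name HEK293T. How reads were aligned and filtered, and how edits were called, were not given in the sources used here. Per element, the authors deposited counts (reads, reads with an edit, edits) and the reads of the library. The deposited percent of edited adenosines equals edits over 7 times the reads within 1e-09, and the authors also deposited each element's percent of the library's reads and a score of efficiency, both unused. The tables list only elements with over 1000 reads, so 16 elements that met the mismatch rule were left out because they were not listed in all 12.

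The value tested was log2((edits + 0.5)/(7 × reads − edits + 0.5)), as is or minus its median over the library, with limma 3.58.1 (lmFit, eBayes with trend) in R 4.3.3, in 1 fit of 12 libraries with Benjamini-Hochberg adjustment over 1006 entries. Fold changes of this scale are differences in log2 odds. Reads were tested with edgeR 4.0.16 (TMM, quasi-likelihood), with DESeq2 1.42.0 as an alternative. Python 3.11.15, numpy 2.4.6, pandas 2.3.3 and scipy 1.17.1 served for tables and class values. The limma fit of centred values and the edgeR fit were tested on simulated data, each for the higher fusion amount against no induction. Replicates of a group differed in reads by 6.24 to 202 times sampling noise, so none was counted as a duplicate. Reads may be PCR copies. The p-values rest on the spread between biological replicates, 3 a group as the series states. In the main fits that spread was pooled over the 4 groups and shrunk across entries.

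Members, classes and lists were chosen with earlier results of these data known, and the GTANATA class after seeing the values. The rule for named elements takes all repeats of period 1 or 2, the members called in the relative fit, the 3 highest and 3 lowest members by level in each group, by relative change in each comparison and by read abundance, and, as background, the consensus and EMPTY. Fewer were named, in the order of that list, and elements shown for their TGTA or their GTANATA, or as pairs that differ by 1 base, were added after their values were seen. Alternatives were each library left out in turn, a replicate block, fits of only the 2 groups compared, a minimum of 5000 reads, other centring, the share of edited reads, an arcsine scale, a quasi-binomial model and a pseudocount of 5.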

Additional observations from a re-analysis of the deposited data

Results flagged for a closer look

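Among the 16 elements that met the mismatch rule but were not listed in all 12 libraries, 3 were listed in at least 9, and their editing under the fusion at 250 ng was above that without induction. They entered no comparison, and no test was made. Of the 1006 entries listed in all libraries 100% were called higher in that comparison, so a rise is not particular to these 3. AGTCCATG averaged 7.32% over 2 libraries at 250 ng, against 1.26% in the 1 non-induced library that lists it. TATTACTA averaged 8.03% over 3 libraries at 250 ng, against 1.41 and 1.46% in 2 non-induced libraries. TGGGCATT averaged 7.92% over 3 libraries at 250 ng, against 1.74 and 2.38% in 2 non-induced libraries. Each was counted on 1016 to 2124 reads where listed, and their levels at 250 ng lay within the range of the 73 members, 7.34 to 11.1%, except that of AGTCCATG just below it.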

How the results depend on the processing

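With the share of edited reads as the measure, the median log2 odds change of the members moved to 1.94 for 250 ng and 1.08 for 25 ng against no induction, 0.852 for 250 ng against 25 ng, and 1.92 and 1.07 for 250 and 25 ng against ADARcdMUT. The arcsine scale gives no value on this unit. With single libraries left out it ranged from 2.17 to 2.26 and from 1.25 to 1.34 against no induction (250 and 25 ng), 0.898 to 0.954 for 250 ng against 25 ng, 2.14 to 2.17 and 1.18 to 1.27 against ADARcdMUT, and 0.0290 to 0.112 for ADARcdMUT against no induction.

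Relative calls for 250 ng against no induction were 11 higher on the arcsine scale and 4 with the share of edited reads, and 5 to 8 higher and 1 to 3 lower with single libraries left out. For 25 ng against no induction 1 was lower on the arcsine scale and 1 with the replicate block, and 3 to 6 were higher and 1 to 3 lower with libraries left out. For 250 ng against 25 ng 3 were higher on the arcsine scale and 1 by the quasi-binomial model. For 250 ng against ADARcdMUT 12 were higher on the arcsine scale and 9 by the quasi-binomial model, 1 was lower with the share of edited reads and 5 when centred on the mean, and libraries left out gave 5 to 11 higher and 2 to 5 lower. For 25 ng against ADARcdMUT the lower calls were 0 on the arcsine scale and in the fit of 2 groups, 2 with the share of edited reads and 3 when centred on the mean, with 3 to 9 higher and 0 to 2 lower when libraries were left out. For ADARcdMUT against no induction 1 was lower with the share of edited reads, and 0 to 1 higher and 0 to 2 lower with libraries left out. Of 32 calls of single elements, 15 held under every alternative and 17 were lost in at least 1, with 0 reversed. The cause was not tested.

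Same-numbered libraries of different groups correlated at -0.0946 to 0.0737 in their deviations of centred log2 odds from the group means. Centring removes a shift shared by a whole library, and reads were not checked this way. Whether the numbers pair the libraries was therefore not settled. With the replicate block read abundance gave 3 higher and 11 lower for 250 ng against no induction, the call of TGTACCCC there was lost (adjusted p = 0.0554), and ATATTGAG, TTCACCTA and, at 25 ng, ATAGTCAT and CGGATGAT lost theirs. Abundance for 250 ng against no induction was 8 higher and 25 lower in the fit of 2 groups and 5 and 13 by DESeq2, which also gave 2 and 1 for 25 ng against ADARcdMUT and 8 and 2 for ADARcdMUT against no induction. With libraries left out the higher and lower calls were 0 to 7 and 0 to 18 for 250 ng against no induction, 0 to 5 and 0 to 16 for 250 ng against 25 ng, 10 to 17 and 23 to 34 for 250 ng against ADARcdMUT, 0 to 10 and 0 to 23 for 25 ng against ADARcdMUT, and 0 to 16 and 0 to 5 for ADARcdMUT against no induction.

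In the class differences below, values with the share of edited reads are points of reads rather than of adenosines. Their size does not compare with that of the others. The GC class difference was -0.158 points (GC 0 to 1 against 7 to 8) and 0.00834 points (means) without induction. At 25 ng it was 0.134 (share of edited reads) and 0.196 points (means). At 250 ng it was -0.481 (GC 0 to 1 against 7 to 8), 0.550 (share of edited reads) and 0.465 (means), and 0.0798 without the members that hold TGTA or GTANATA, an alternative chosen after seeing the data. With libraries left out it ranged over 0.0297 to 0.0512 without induction, -0.00398 to 0.0604 at 25 ng, 0.163 to 0.223 at 250 ng and 0.0499 to 0.201 with ADARcdMUT. The run class difference was 0.0105 (runs of 3), 0.0514 (runs of 5), 0.0139 (share of edited reads) and 0.000419 points (without these members) without induction. It was -0.0418 (runs of 3), -0.0385 (means) and 0.113 (without these members) at 25 ng, 0.0299, 0.0141 and 0.258 under the same settings at 250 ng, and -0.155 with the share of edited reads for ADARcdMUT. With libraries left out it ranged over -0.0182 to -0.00680, 0.00436 to 0.0640, 0.162 to 0.228 and -0.102 to -0.0123 in the order no induction, 25 ng, 250 ng and ADARcdMUT.

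Classes of 2 to 6 elements rest on few sequences, and 3 libraries a group limit every call.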
